A study of Mus musculus with 12 samples.

Results

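The nuclear-encoded subunits of respiratory complexes II, III and IV and of the ATP synthase, also called complex V, were examined by total RNA sequencing of NIH-3T3 cells, a line of mouse embryo fibroblasts. Members were chosen by gene symbol from the protein-coding genes of GENCODE release M21. They are Cyc1, Sdha to Sdhd, and symbols that begin with Uqcr, Cox4i, Cox5, Cox6a, Cox6b, Cox6c, Cox7a, Cox7b, Cox7c, Cox8 or Atp5, without Atp5s and Atp5sl. This gave 48 gene rows with 47 symbols out of 54392 rows, with 4 rows for complex II, 9 for complex III, 18 for complex IV and 17 for complex V. The lines Crls1KO1, Crls1KO2 and Crls1KO3, called KO1, KO2 and KO3 here, each grew from 1 cell sorted on GFP after transfection with a plasmid for Cas9 and a guide RNA against Crls1, so each line is 1 clone. The reference cells are NIH-3T3 with the Crls1WT genotype, called WT, and the labels do not say whether they were sorted too. Every group had 3 libraries and was grown in the same medium with glucose, pyruvate and uridine. Nothing in the labels says that the libraries of a group came from separate cultures, so p-values measure the spread between these libraries, which may be technical.

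Complex II oxidises succinate and is built from nuclear genes alone. Complex III passes electrons from coenzyme Q to cytochrome c, complex IV passes them on to oxygen, and complex V uses the proton gradient they build to make ATP. Complexes III, IV and V each combine nuclear-encoded subunits with subunits translated inside the organelle, and cardiolipin, the product of the Crls1 enzyme, is a known structural lipid of all of them. Several complex IV subunits exist as paralogous isoforms that are known from heart and skeletal muscle, lung or testis, while fibroblasts use the ubiquitous isoforms.

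Crls1 RNA averaged 210.4 ± 2.67 normalized counts in KO1, 349 ± 21.1 in KO2 and 381 ± 23.9 in KO3, against 815 ± 68.4 in WT (SD, n = 3 each). The reads behind a library numbered between 32929242 (WT replicate 1) and 42211807 (KO3 replicate 2). Of 10 fibroblast markers 9 passed the filter on low values and Fap was at 0 in every library. For the genes described here, WT replicate 1 differed from its 2 companion libraries. Its median over the 42 tested members was -0.48 on the log2 scale relative to the mean of WT replicates 2 and 3, and 40 of 42 members were below that mean. By complex the median was -0.31 for complex II, -0.41 for III, -0.70 for IV and -0.48 for V. Over all tested genes it was 0.028, over 864 genes with transcripts shorter than 1000 nucleotides -0.42, and over 4631 genes of at least 3000 nucleotides 0.15. KO2 replicate 3 and KO3 replicate 2 deviated in the same direction but less. They had 34 and 33 of 42 members below their companions, with medians of -0.089 and -0.099 over the short genes and 0.063 and 0.036 over the long ones. Leaving out WT replicate 1 does not remove this pattern from the clones. The members are short: their median transcript length is 730.25 nucleotides, against 2547.25 over all tested genes, and 27 of 42 are under 1000. The part of this length pattern in the results was not tested further than by removing a length trend, and results that rest on WT replicate 1 are given with and without it. Without it WT has 2 libraries, and the library that stood apart most no longer adds to the spread. It was singled out from these same values, so adjusted p-values without it may be too small, and calls gained that way are to be read with care.

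**Figure D1:**
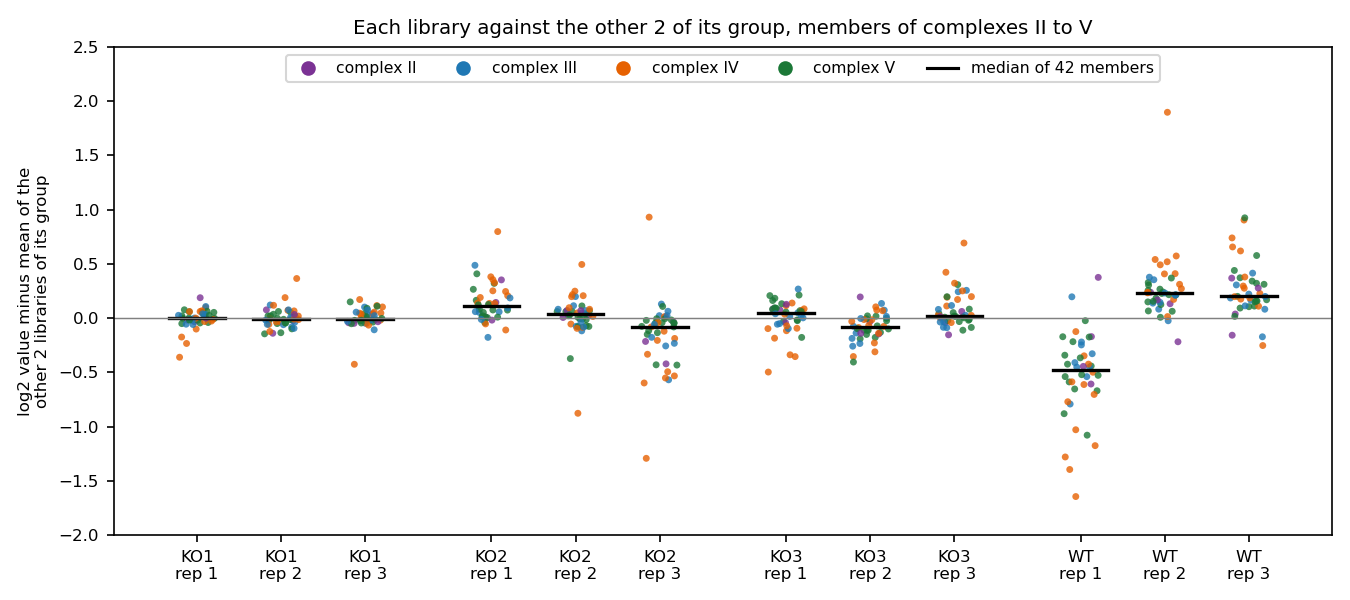
Difference of each tested member (points, 42 per library, coloured by complex) from the mean of the other 2 libraries of its group, on the log2(normalized count + 1) scale, with the median as a line. WT replicate 1 has a median of -0.48, while the medians of the 9 clone libraries lie between -0.082 and 0.11.

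More members were higher in RNA than lower in each clone, most clearly in KO3, but part of this rested on WT replicate 1. In bulk RNA a change in the fraction of cells with a transcript and in its amount per cell cannot be told apart. Of 48 rows, 42 had at least 10 normalized counts in at least 3 of the 12 libraries and were tested. The other 6 were Cox4i2, Cox6b2, Cox7a1, Cox8b, Cox8c and a rarely counted row of Atp5o (ENSMUSG00000116933.1). In KO1, 13 members rose and 4 fell, against 26.9% and 25.4% of all 15073 genes tested. In KO2, 17 rose and 2 fell, against 29.9% and 30.5% of all genes. In KO3, 22 rose and 3 fell, against 26.8% and 27.3%. The KO1 count of rises is close to the share of all genes, and in KO3 52.4% of the members rose. Both counts include Cox6a2, which passed the filter only through KO1 and KO3, where it was high. Falls were fewer than among all genes in each clone. When WT replicate 1 was left out, 9 rose and 8 fell in KO1 (27.5% and 25.5% of all genes), 12 rose and 9 fell in KO2 (30.5% and 30.6%), and 18 rose and 5 fell in KO3 (27.6% and 27.9%). The share that rose was then 21.4% in KO1 and 28.6% in KO2, below the share of all genes in each, and 42.9% in KO3, above it.

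**Figure D2:**
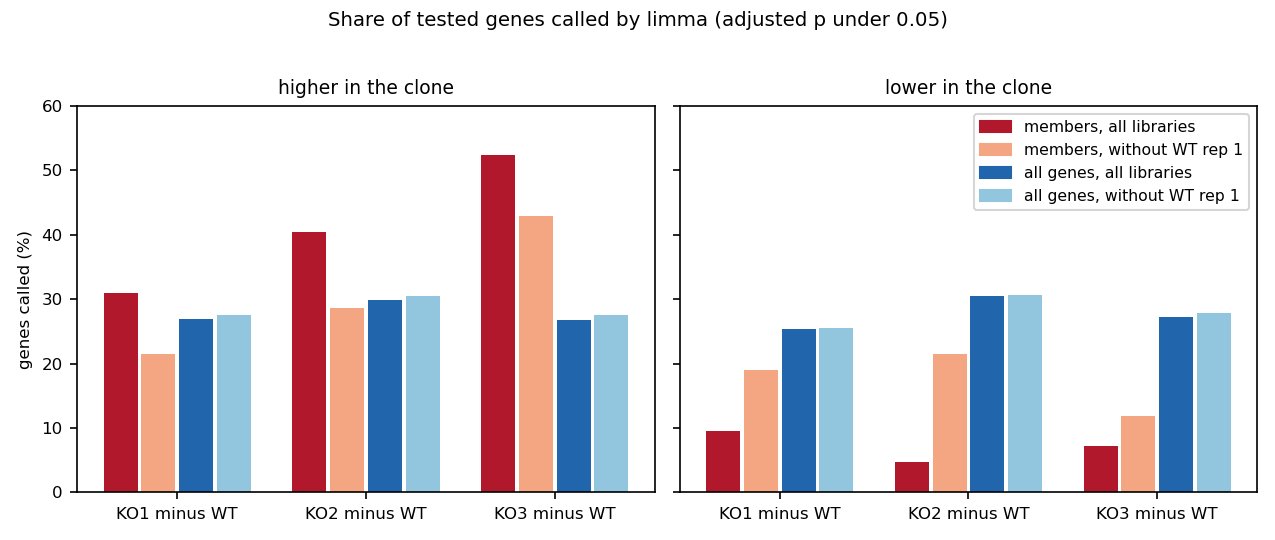
Percentage of the 42 tested members (red) and of all 15073 tested genes (blue) that were called higher (left) or lower (right) in each clone, with all libraries and, in the paler bars, without WT replicate 1. Without that library 42.9% of members were higher in KO3 and 21.4% in KO1, against 27.6% and 27.5% of all genes.

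The 3 comparisons share their WT libraries. In all of them 8 members rose, as did 12.9% of all genes. They were Sdhb of complex II, Uqcr10, Uqcrc2, Uqcrh and Uqcrq of complex III, Cox7b2 of complex IV, and Atp5a1 and Atp5mpl of complex V. Atp5f1 of complex V was the 1 member that fell in every clone, where 13.3% of all genes did. Leaving out WT replicate 1 left 6 shared rises, as Sdhb and Uqcrq dropped out, and the shared falls were 3, with Uqcrb and Uqcrc1 joining Atp5f1 (13.4% of all genes were called higher throughout and 13.4% lower). Uqcr10, Uqcrh, Atp5mpl, Cox7b2 and Atp5f1 were called in each clone whichever of the 12 libraries was left out. Among these, Uqcr10 and Cox7b2 were also called in each clone under every other alternative tried. No call in any clone was made for 12 members, Sdhc, Uqcrfs1, Cox5b, Cox6c, Cox7a2, Cox7b, Cox7c, Atp5g1, Atp5g2, Atp5g3, Atp5j and Atp5j2. The share of all genes without a call in any clone was not counted, so this count has no background beside it. By the authors' deposited table, 11 of the 42 rose and 4 fell in KO1, 17 and 2 in KO2, and 20 and 3 in KO3, and 15, 18 and 23 of these calls are also made here. The authors' values call Cox7b higher in KO2 (0.22, adjusted p = 0.0404 in their DESeq2 results), which is not called here. Besides the pairs treated below, genes on the opposite strand overlap Atp5a1 (Haus1, mean of 533 normalized counts), Atp5d (Cbarp, 179), Cox6c (Vps13b, 3450.4) and Atp5j (Gabpa, 3287), and reads of such pairs cannot be told apart where counting ignores strand.

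**Figure D3:**
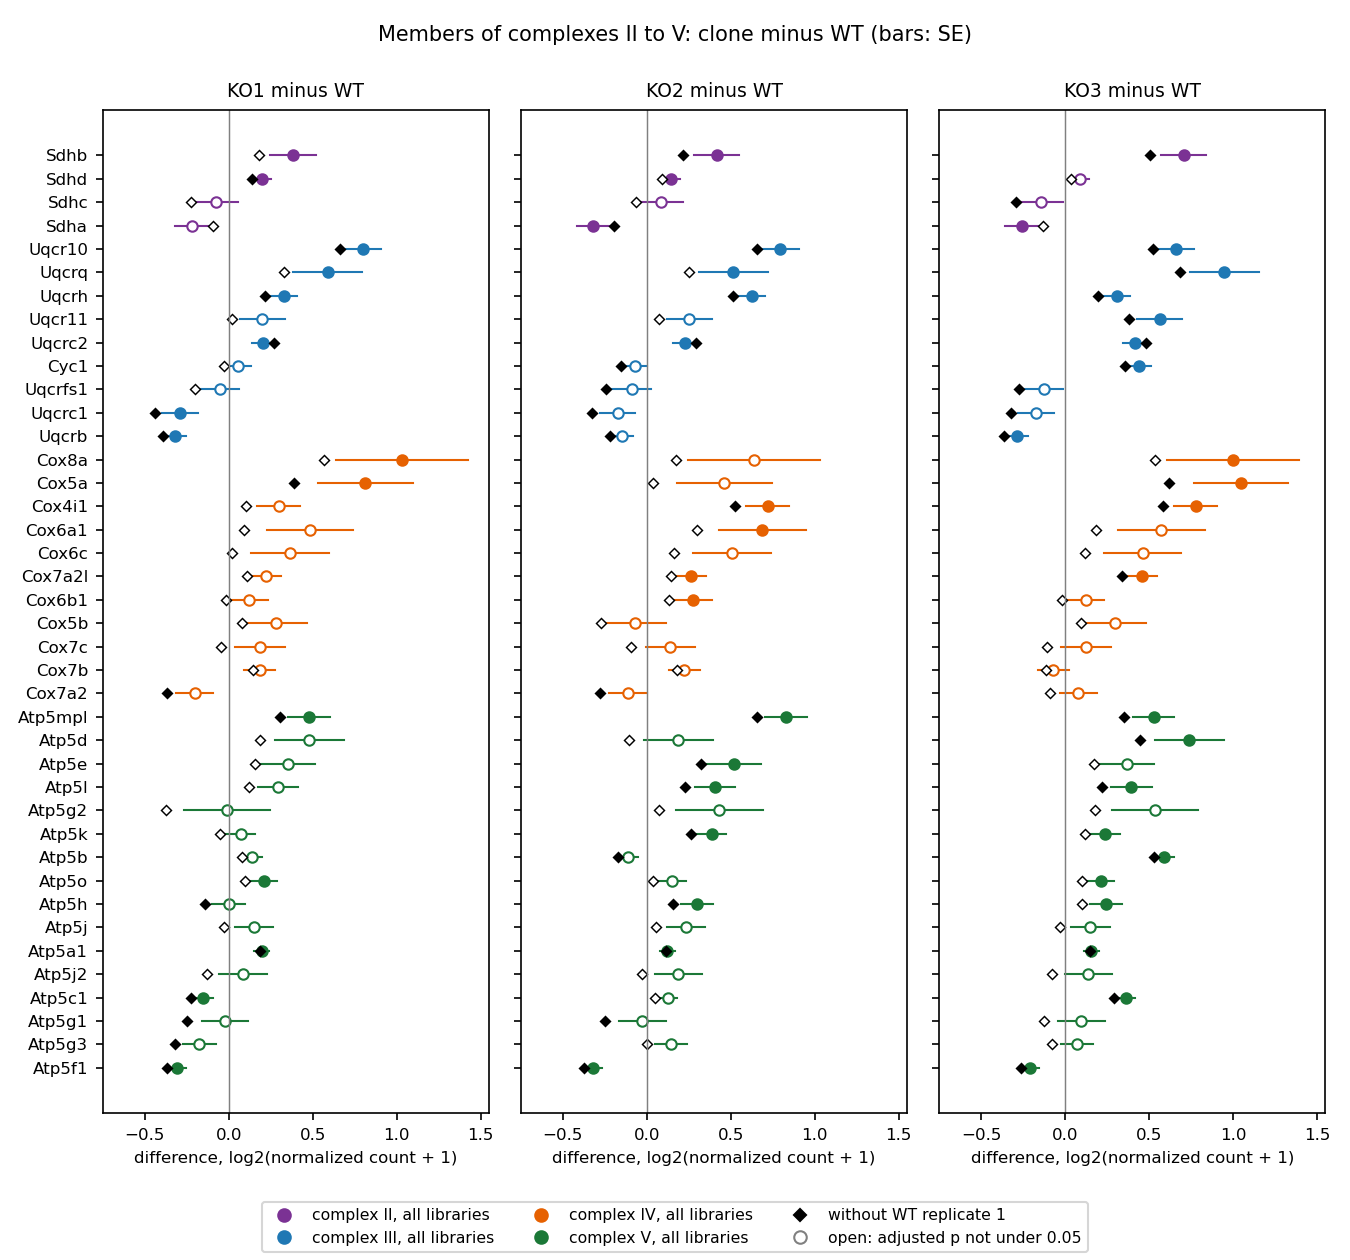
Difference of each clone from WT on the log2(normalized count + 1) scale for 40 of the 42 tested members, sorted within their complex by the mean over clones (Cox6a2 and Cox7b2, off this scale, are left out). Circles with SE bars are from all libraries, diamonds without WT replicate 1, and open symbols did not pass an adjusted p of 0.05. The diamonds lie left of the circles for most members, while Uqcr10, Uqcrh and Atp5mpl stay right of 0 and filled in all panels.

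Promoters of respiratory genes are known to carry sites for NRF1, for the ETS factor GABP and for YY1. RefSeq windows of 250 bases before to 50 bases after the start (GRCm38.p6) were found for 35 of 48 members, 32 of them tested, and searched on both strands. The NRF1 motif, GCGC, any base and TGCGC, was in 9 of these 32 windows (28.1%), against 4.60% of 32851 windows of all genes. The members with it were Sdha, Sdhd, Uqcrc1, Cox6a1, Atp5g2, Atp5g3, Atp5h, Atp5k and Atp5o. CCGGAAGT, the ETS core, was in 4 (Uqcr11, Uqcrh, Cox8a and Atp5h, 12.5% against 3.89%), and AAGATGGC of YY1 in 2 (Atp5f1 and Atp5j2, 6.25% against 2.75%). These shares are of unlike sets: each member has 1 window and was tested, while the 32851 windows include genes not tested and more than 1 window of some genes. The windows with motifs of Atp5g2 and Atp5j2 have their starts 1305 and 521 bases from the M21 gene end. A match describes the letters and is not evidence of binding. The windows below are those of Uqcr10 (chr11:4704295-4704594, minus strand) and Cox7b2 (chr5:71548156-71548455, minus strand), whose rises held under every alternative, of Atp5f1, which RefSeq lists as Atp5pb (chr3:105959214-105959513, minus strand, with its start 836 bases from the M21 gene end), of Uqcrh (chr4:116075021-116075320, minus strand) and of Sdha (chr13:74350191-74350490, minus strand). They are written 5′ to 3′ on the gene's strand, with motif letters in capitals: YY1 in Atp5f1 from base 248, ETS in Uqcrh from base 240, and NRF1 at 3 places in Sdha, while Uqcr10 and Cox7b2 hold none of these letters.
Uqcr10: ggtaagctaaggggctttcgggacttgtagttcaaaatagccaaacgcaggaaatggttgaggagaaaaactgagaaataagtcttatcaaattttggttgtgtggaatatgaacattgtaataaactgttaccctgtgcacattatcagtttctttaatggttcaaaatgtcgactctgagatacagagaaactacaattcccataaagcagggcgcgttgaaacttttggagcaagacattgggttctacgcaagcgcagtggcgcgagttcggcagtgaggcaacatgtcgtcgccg
Cox7b2: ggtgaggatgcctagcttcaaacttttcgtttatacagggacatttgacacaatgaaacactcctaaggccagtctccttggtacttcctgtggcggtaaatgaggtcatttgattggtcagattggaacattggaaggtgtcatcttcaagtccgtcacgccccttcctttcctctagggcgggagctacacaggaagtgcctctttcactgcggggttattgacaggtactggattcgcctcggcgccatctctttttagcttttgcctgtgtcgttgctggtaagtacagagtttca
Atp5f1: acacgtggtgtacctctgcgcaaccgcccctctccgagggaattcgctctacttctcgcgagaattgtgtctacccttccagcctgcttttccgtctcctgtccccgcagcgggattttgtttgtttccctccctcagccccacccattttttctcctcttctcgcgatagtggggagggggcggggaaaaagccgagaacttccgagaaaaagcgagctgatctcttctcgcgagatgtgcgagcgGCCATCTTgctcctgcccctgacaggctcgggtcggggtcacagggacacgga
Uqcrh: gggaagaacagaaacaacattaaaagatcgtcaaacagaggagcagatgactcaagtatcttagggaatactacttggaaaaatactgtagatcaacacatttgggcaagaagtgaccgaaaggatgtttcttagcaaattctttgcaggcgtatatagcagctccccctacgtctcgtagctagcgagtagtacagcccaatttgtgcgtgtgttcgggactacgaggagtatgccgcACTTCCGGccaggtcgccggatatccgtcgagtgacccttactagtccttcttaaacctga
Sdha: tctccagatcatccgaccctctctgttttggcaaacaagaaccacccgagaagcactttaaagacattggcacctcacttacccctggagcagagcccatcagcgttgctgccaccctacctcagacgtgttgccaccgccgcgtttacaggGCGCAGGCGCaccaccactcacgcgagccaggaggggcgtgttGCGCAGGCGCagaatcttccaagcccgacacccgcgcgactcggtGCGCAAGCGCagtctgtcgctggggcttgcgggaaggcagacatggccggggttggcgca
The windows with a motif thus include members that rose (Uqcrh), members that fell (Sdha, Atp5f1) and, among the 9 with NRF1 letters, members without a call in any clone (Atp5g2 and Atp5g3).

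In complex II the catalytic flavoprotein gene Sdha and the iron-sulphur subunit gene Sdhb moved in opposite directions in KO2 and KO3. Sdhb (chromosome 4, 140961203 to 140979193, plus strand) had normalized counts of 2792, 2937 and 2779.8 in KO1, 3100.3, 2996 and 2625 in KO2 and 3690.3, 3319 and 3652 in KO3, against 1642, 2428 and 2578 in WT. All clone libraries were above all WT libraries, and WT replicate 1 was lowest. Its log2 differences were 0.38, 0.42 and 0.71 (for KO1, KO2 and KO3 in turn, SE 0.13, adjusted p = 0.031, 0.0181 and 0.00074). With WT replicate 1 left out they were 0.18, 0.21 and 0.50 (adjusted p = 0.0544, 0.0234 and 8.91e-05), so that the KO1 call was lost. The KO1 call was also lost without any 1 KO1 library (adjusted p up to 0.0873) and the KO2 call without KO2 replicate 1 or 2 (up to 0.0655), while the KO3 call held in every case.

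Sdha (chromosome 13, 74322254 to 74350280, minus strand) had 4348, 3737 and 3898 in KO1, 3691, 3732 and 3744 in KO2 and 3811, 4250.4 and 3617 in KO3, against 5527, 4201 and 4319.8 in WT. WT replicate 1 was highest here, the reverse of Sdhb, and KO1 and KO3 overlapped WT. The log2 differences were -0.22, -0.32 and -0.26 (for KO1, KO2 and KO3 in turn, SE 0.098, adjusted p = 0.0779, 0.0136 and 0.0415), so Sdha fell in KO2 and KO3. The KO3 call was lost without any of 7 single libraries (adjusted p up to 0.143). With WT replicate 1 left out the KO3 value was -0.13 (adjusted p = 0.139) and the KO2 value -0.19 (adjusted p = 0.0342). With the median of the 20 nearest genes subtracted the direction turned, to 0.26, 0.089 and 0.24, with calls of higher RNA in KO1 and KO3. Of the membrane anchors that hold the complex in the inner membrane, Sdhd rose in KO1 (0.20, adjusted p = 0.00805) and KO2 (0.15, 0.0317, but 0.090, adjusted p = 0.0897 without WT replicate 1), and Sdhc was at -0.074, 0.085 and -0.14 and not called in any clone, but lower in KO3 without WT replicate 1 (-0.29, adjusted p = 0.044).

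In complex III the small subunit gene Uqcr10, Uqcrh and the core subunit gene Uqcrc2 rose in each clone, while Uqcrb fell in KO1 and KO3. Of 9 tested members, 4 rose and 2 fell in KO1, 4 and 0 in KO2 (1 fell at an unadjusted p under 0.05, 0 by edgeR and 1 by DESeq2), and 6 and 1 in KO3, and their median log2 difference was 0.20, 0.22 and 0.41 in KO1, KO2 and KO3, against 0.062, 0.12 and -0.026 for complex II and 0.018, 0.0040 and 0.0032 over all genes. Among all genes 26.9% rose and 25.4% fell in KO1, 29.9% and 30.5% in KO2, and 26.8% and 27.3% in KO3. Leaving out WT replicate 1 gave complex III medians of 0.019, 0.073 and 0.36, with 3 rises and 2 falls in KO1, 3 and 4 in KO2, and 6 and 3 in KO3. The shares of all genes without that library were 27.5% and 25.5% in KO1, 30.5% and 30.6% in KO2, and 27.6% and 27.9% in KO3. With length and GC trends removed, the complex III medians were -0.037 in KO1, -0.10 in KO2 and 0.32 in KO3. There were then 4 rises and 2 falls in KO1, 4 and 3 in KO2, and 5 and 2 in KO3. A higher complex III median thus remained in KO3 only.

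Uqcr10, a small single-pass subunit, was called higher in each clone under every alternative (chromosome 11, 4701973 to 4704342, minus strand, 2 exons in Uqcr10-201). Its normalized counts were 1665, 1596 and 1656 in KO1, 1706, 1607 and 1591 in KO2 and 1682, 1334 and 1463 in KO3, against 779, 1037 and 1032 in WT. The highest WT library lay below the lowest library of any clone, and no difference between clones was called. The log2 differences were 0.80, 0.80 and 0.66 (for KO1, KO2 and KO3 in turn, SE 0.11, adjusted p = 5.68e-05, 4.31e-05 and 0.000242), or 0.66, 0.66 and 0.52 without WT replicate 1. Removing length and GC trends left 0.55, 0.51 and 0.45, and subtracting the median of the 20 nearest genes 0.72, 0.59 and 0.73.

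Uqcrh, the acidic hinge subunit that lies where cytochrome c docks (chromosome 4, 116066965 to 116075071, minus strand), had 6713, 6310.0 and 6761 in KO1, 8317, 7787 and 8179 in KO2 and 6618, 6486 and 6389 in KO3, against 4512, 5801 and 5534 in WT. KO2 was the highest group, and no clone library overlapped WT. The differences were 0.33, 0.62 and 0.31 (for KO1, KO2 and KO3 in turn, SE 0.078, adjusted p = 0.00374, 2.1e-05 and 0.00525), and 0.22, 0.51 and 0.20 without WT replicate 1. With a length trend removed the KO1 value was 0.16 (adjusted p = 0.0519) and the KO3 value 0.15 (adjusted p = 0.0613), neither of them called. KO2 minus KO1 gave 0.30 (adjusted p = 0.00847), and for KO3 minus KO2 the value was -0.32 (adjusted p = 0.00444).

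Uqcrc2, a core subunit of the matrix side (chromosome 7, 120635176 to 120659524, plus strand), had 3855, 4102 and 3691 in KO1, 3905, 3720.0 and 4171 in KO2 and 4284, 4514 and 4649 in KO3, against 3682, 3325 and 3105 in WT. Here WT replicate 1 was the highest WT library, so leaving it out made the rise larger. The differences were 0.21, 0.22 and 0.41 (for KO1, KO2 and KO3 in turn, SE 0.070, adjusted p = 0.026, 0.0147 and 0.000291), against 0.27, 0.29 and 0.48 without WT replicate 1. The KO1 call was lost without WT replicate 2 or 3 or KO1 replicate 1 or 2 (adjusted p up to 0.106), and the KO2 call without WT replicate 3 or KO2 replicate 3 (up to 0.0658). Uqcrc1, the other core subunit, averaged 4052 ± 52.8 in KO1, 4400.1 ± 308 in KO2 and 4398 ± 258 in KO3, against 5005 ± 856 in WT (SD, n = 3 each), and it fell in KO1 only, at -0.29, -0.17 and -0.17 (for KO1, KO2 and KO3 in turn, SE 0.10, adjusted p = 0.0349, 0.173 and 0.184). It was called lower in every clone once WT replicate 1 was left out, at -0.44, -0.32 and -0.32 (adjusted p = 8.81e-05, 0.000677 and 0.000803), and with the nearest genes' median subtracted it was at 0.055, 0.14 and 0.20. Leaving out WT replicate 2 or 3 or any KO1 library ended the KO1 call (adjusted p up to 0.136).

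Uqcrq, a small subunit next to cytochrome b (chromosome 11, 53427922 to 53430831, minus strand), had 2478, 2520.2 and 2632 in KO1, 3021, 2505 and 1854 in KO2 and 3261, 2890.4 and 3667 in KO3, against 1170.1, 2009.7 and 2045 in WT. KO2 replicate 3 fell among the WT values, and WT replicate 1 was the lowest library. The differences were 0.59, 0.51 and 0.95 (for KO1, KO2 and KO3 in turn, SE 0.21, adjusted p = 0.0296, 0.0466 and 0.00186), and without WT replicate 1 they were 0.33, 0.25 and 0.68 (adjusted p = 0.0977, 0.183 and 0.00258), so only the KO3 call remained. The KO1 call was also lost without any 1 KO1 library and the KO2 call without any of 9 single libraries (adjusted p up to 0.0977 and 0.191). Uqcrb, which binds at the coenzyme Q site (chromosome 13, 66900617 to 66905378, minus strand), had 1542, 1516 and 1568 in KO1, 1778, 1676 and 1754 in KO2 and 1587, 1630.3 and 1513 in KO3, against 1738, 2051 and 1999 in WT. All its KO1 and KO3 libraries were below WT. It fell in KO1 and KO3, with differences of -0.32, -0.15 and -0.29 (for KO1, KO2 and KO3 in turn, SE 0.065, adjusted p = 0.00126, 0.0642 and 0.00236), and without WT replicate 1 in KO2 as well (-0.22, adjusted p = 0.00252). With the nearest genes' median subtracted it was at -0.13, 0.032 and -0.0046 and uncalled.

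In KO3 alone among the clones, calls were made for Cyc1, the cytochrome c1 heme subunit (0.44, adjusted p = 0.000307), and for the small subunit gene Uqcr11 (0.56, adjusted p = 0.00347). Cyc1 averaged 3579 ± 156 in KO1, 3276 ± 232 in KO2 and 4666 ± 142 in KO3, against 3451 ± 339 in WT (SD, n = 3 each). In the tests between clones Cyc1 was higher in KO3 than in KO1 by 0.38 (adjusted p = 0.00123) and than in KO2 by 0.51 (adjusted p = 9.42e-05), and Uqcr11 was higher in KO3 than in KO1 by 0.36 (adjusted p = 0.0446). That call of Uqcr11 was lost without any of 7 single libraries (adjusted p up to 0.156), and against KO2 it was not called (0.31, adjusted p = 0.0701). The KO3 differences from WT were 0.36 (adjusted p = 0.000369) for Cyc1 and 0.38 (adjusted p = 0.00418) for Uqcr11 without WT replicate 1. The Rieske iron-sulphur gene Uqcrfs1 was at -0.052, -0.091 and -0.12 and not called, but lower in KO2 (-0.24, adjusted p = 0.0234) and KO3 (-0.27, adjusted p = 0.0136) without WT replicate 1. With the nearest genes' median subtracted the direction of Uqcrfs1 turned in KO2 and KO3, with calls of higher RNA.

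In complex IV the largest changes were in isoforms known from other tissues, Cox7b2 and Cox6a2, and several calls of the ubiquitous subunits were lost without WT replicate 1. Cox6a2 passed the filter only through KO1 and KO3, where it was high, and is among the rises counted for these 2 clones. Of 13 tested members, 4 rose in KO1, 5 in KO2 and 6 in KO3, and 0 fell by limma in any clone, with 0 also at an unadjusted p under 0.05, by edgeR and by DESeq2. Over all genes the shares that rose were 26.9%, 29.9% and 26.8% in KO1, KO2 and KO3, and those that fell 25.4%, 30.5% and 27.3%. The KO1 count of rises in complex IV is close to the share of all genes. The median differences of the complex were 0.30, 0.46 and 0.46 in KO1, KO2 and KO3, and 0.10, 0.14 and 0.18 without WT replicate 1, with 3 rises and 1 fall in KO1, 2 and 1 in KO2 and 5 rises in KO3. With length and GC trends removed, the medians were 0.21, 0.24 and 0.35, with 6 rises and 1 fall in KO1, 6 and 1 in KO2, and 7 and 0 in KO3. Both trends removed without WT replicate 1 gave complex IV medians of 0.091, 0.080 and 0.14.

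Cox7b2, an isoform of Cox7b known from testis (chromosome 5, 71442824 to 71548205, minus strand), had normalized counts of 508, 465 and 506 in KO1, 2025, 1821 and 1866 in KO2 and 626, 668 and 648 in KO3, against 74.1, 139 and 117 in WT. Every clone library lay above every WT library, with KO2 highest. Its log2 differences were 2.20, 4.15 and 2.60 (for KO1, KO2 and KO3 in turn, SE 0.17, adjusted p = 4.03e-07, 1.16e-09 and 6.9e-08), which is 4.60, 17.7 and 6.04 times the WT level on the log2(value + 1) scale. On the log2 scale KO2 minus KO1 gave 1.95 (adjusted p = 2.26e-06), and for KO3 minus KO2 the value was -1.55 (adjusted p = 8.63e-06). Of its transcript's 31-nucleotide stretches 0.195% occur in other annotated transcripts. Of the summed Cox7b and Cox7b2 level per kilobase of transcript, Cox7b2 made up 15.6% ± 0.640 in KO1, 41.0% ± 2.86 in KO2 and 22.4% ± 1.35 in KO3, against 4.42% ± 1.16 in WT (SD, n = 3 each).

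Cox7b itself, the ubiquitous isoform, had 4873, 4914 and 5019 in KO1, 5689, 5259 and 4341 in KO2 and 3797, 4111 and 4533 in KO3, against 4099.6, 4370.4 and 4568 in WT. KO2 and KO3 overlapped WT, and no clone was called against it (0.18, 0.22 and -0.070). Between clones it was lower in KO3 than in KO1 (-0.25, adjusted p = 0.0399) and than in KO2 (-0.29, adjusted p = 0.0174), but with the nearest genes' median subtracted these differences were 0.22 and 0.19. KO3 minus WT then turned direction too, with a call of higher RNA. The KO3 minus KO1 call was also lost without any of 7 single libraries (adjusted p up to 0.154) and the KO3 minus KO2 call without any of 3 (up to 0.0806). Of 6 male germ cell markers 1 passed the filter, and Prm1, Prm2 and Tnp1 were at 0 in every library. The summed level of the 6 markers was 1.06 to 11.8 normalized counts in KO1, 9.67 to 15.9 in KO2 and 3.51 to 12.8 in KO3, against 0 to 3.61 in WT. Their part in the Cox7b2 values was not tested. 

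**Figure D4:**
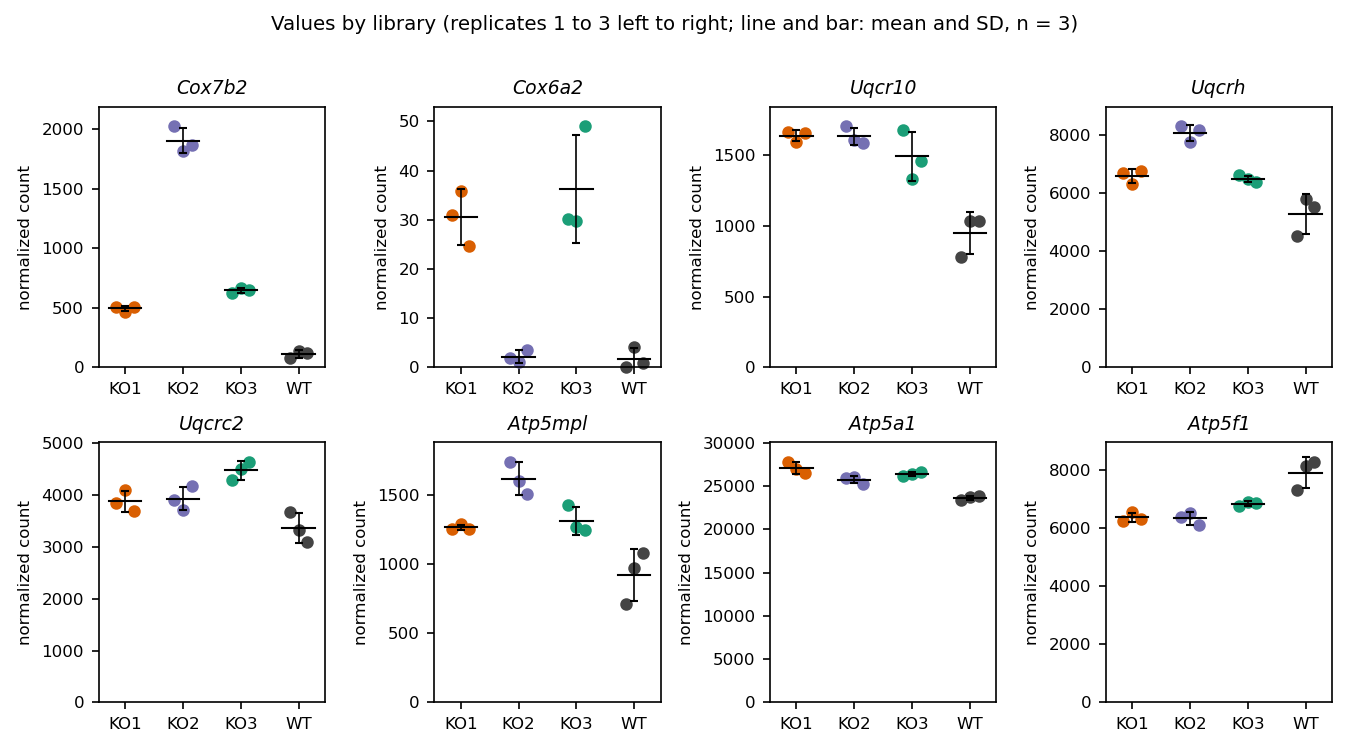
Normalized counts of 8 members in each library, with replicates 1 to 3 from left to right in a group, and the group mean and SD (n = 3). Cox7b2 lies between 465 and 2025 in the clone libraries and between 74.1 and 139 in WT, Cox6a2 is near 0 in KO2 and WT, and in the Atp5f1 panel WT is highest.

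Cox6a2, the heart and muscle isoform of Cox6a1 (chromosome 7, 128205435 to 128206387, minus strand), had 31.04, 35.9 and 24.6 in KO1, 1.87, 0.958 and 3.52 in KO2 and 30.1, 29.8 and 49.0 in KO3, against 0, 4.14 and 0.903 in WT. It was thus near 0 in WT and KO2 and low in KO1 and KO3. Only its KO1 and KO3 libraries reached 10 normalized counts. It therefore passed the filter only through the groups where it was high, which favours a call against WT and KO2. The log2 differences were 3.86, 0.46 and 4.09 (for KO1, KO2 and KO3 in turn, SE 0.54, adjusted p = 6.76e-05, 0.482 and 3.75e-05), and with WT at a few reads they depend on the pseudocount. Cox6a2 overlaps Itgad, an integrin gene on the opposite strand, which averaged 60.2 in KO1, 7.25 in KO2 and 60.0 in KO3, against 8.42 in WT, and changed by 3.70, 0.61 and 3.68 (adjusted p = 0.00282, 0.558 and 0.00272). The sources used here do not state whether counting used strand, so reads of the pair cannot be told apart. Of 10 skeletal muscle markers 3 passed the filter and Myod1 and Myh2 were at 0. Their summed level ranged from 52.1 to 692 in KO1, 151 to 288 in KO2 and 10.5 to 1575 in KO3, against 25.9 to 40.6 in WT, and their part in the Cox6a2 values was not tested. Of 7 cardiac markers 2 passed and Actc1 was at 0, and their summed level ranged from 191 to 207 in KO1, 79.3 to 115 in KO2 and 58.6 to 81.9 in KO3, against 914 to 1171 in WT, where Cox6a2 was near 0. Per kilobase Cox6a2 made up 0.599% of the Cox6a1 and Cox6a2 sum in KO1, 0.0395% in KO2 and 0.654% in KO3, against 0.0360% in WT.

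The other tissue isoforms stayed near 0. Cox8b and Cox8c had 0 reads in all 12 libraries, Cox6b2 reached at most 1.06, Cox4i2 2.64 and Cox7a1 3.11 normalized counts. Their ubiquitous partners were abundant. Cox4i1, the subunit through which ATP is known to inhibit the enzyme, had 9998, 9461 and 9708 in KO1, 14327, 12514 and 12313 in KO2 and 14284, 12699 and 13705 in KO3, against 6026, 9130.2 and 8979 in WT. It rose in KO2 and KO3, with differences of 0.30, 0.72 and 0.78 (for KO1, KO2 and KO3 in turn, SE 0.13, adjusted p = 0.0718, 0.000394 and 0.000263), and 0.10, 0.52 and 0.58 without WT replicate 1. KO2 exceeded KO1 by 0.42 (adjusted p = 0.0188), a call lost without KO1 replicate 2 or KO2 replicate 1 (adjusted p up to 0.077), and KO3 exceeded it by 0.48 (adjusted p = 0.00973). Emc8, which overlaps Cox4i1 on the opposite strand, changed by 0.91, 1.21 and 0.91 (adjusted p = 0.0213, 0.0036 and 0.0205), and reads of this pair cannot be told apart without strand either.

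Cox8a and Cox5a spread widely within WT. Cox8a, a small supernumerary subunit, had 4172, 5379 and 5335 in KO1, 5421, 4713 and 2062 in KO2 and 3829, 4988 and 5859 in KO3, against 1264, 3025 and 3661 in WT, with WT replicate 1 and KO2 replicate 3 the lowest libraries. The differences were 1.03, 0.64 and 1.00 (for KO1, KO2 and KO3 in turn, SE 0.39, adjusted p = 0.0435, 0.181 and 0.0481), but without WT replicate 1 they were 0.57, 0.17 and 0.53 and none was called (adjusted p = 0.165, 0.669 and 0.185). Over the 12 libraries left out in turn the KO1 call was lost without any of 8 libraries, namely WT replicate 1, KO2 replicate 2 and each KO1 and KO3 library, with adjusted p up to 0.165, and the KO3 call without the same 8 libraries (up to 0.185).

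Cox5a, which contacts the ATP-binding face of Cox4i1, had 2128, 2384 and 2419 in KO1, 2155, 1998 and 1371 in KO2 and 2571, 2618 and 2965 in KO3, against 726, 1685 and 1847 in WT. It rose in KO1 and KO3, with differences of 0.81, 0.46 and 1.05 (for KO1, KO2 and KO3 in turn, SE 0.28, adjusted p = 0.0286, 0.176 and 0.00726), and kept both calls without WT replicate 1, at 0.39 (adjusted p = 0.0491) and 0.62 (0.00416). The KO1 call was lost without any 1 KO1 library (adjusted p up to 0.0759).

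Cox6a1, the ubiquitous partner of Cox6a2, had 4240.4, 4195 and 4357 in KO1, 5501, 5509 and 3908 in KO2 and 4346, 4083 and 5267 in KO3, against 1769.9, 3876 and 4128 in WT, with WT replicate 1 far below the other WT libraries. Cox6b1, which joins the monomers of the dimer, had 4740.2, 4779.7 and 4912 in KO1, 5079, 5585 and 5376 in KO2 and 5128, 4165 and 5206 in KO3, against 3629, 4929.6 and 4812 in WT, and its KO1 and KO3 libraries overlapped WT. Cox6a1, at 0.48, 0.69 and 0.57, and Cox6b1, at 0.12, 0.27 and 0.12, were called in KO2 alone, and neither call held without WT replicate 1 (0.30, adjusted p = 0.0792, and 0.13, adjusted p = 0.179).

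Among the Cox7a paralogs, Cox7a2l, known as a supercomplex factor, rose in KO2 and KO3, with differences of 0.22, 0.26 and 0.46 (for KO1, KO2 and KO3 in turn, SE 0.090, adjusted p = 0.0538, 0.0241 and 0.000909), and without WT replicate 1 in KO3 only (0.11, 0.14 and 0.34). It had 5582, 5455 and 5337 in KO1, 6114, 5639 and 5092 in KO2 and 6525, 6222 and 6509.7 in KO3, against 3981, 5063 and 5069 in WT, with every clone library above WT. The KO2 call was also lost without KO2 replicate 1 or 2 (adjusted p up to 0.104). The processed pseudogene Gm6969, of whose 31-nucleotide stretches 78.2% occur in Cox7a2l, averaged 1094 normalized counts over all libraries. Cox7a2 had 2216, 2236 and 2197 in KO1, 2519, 2414 and 2165 in KO2 and 2786, 2659 and 2645 in KO3, against 2026, 2894 and 2835 in WT, overlapping in each comparison. It was at -0.20, -0.11 and 0.079 and uncalled, but without WT replicate 1 it was lower in KO1 (-0.37, adjusted p = 0.000264) and KO2 (-0.28, adjusted p = 0.00157). No clone was called for Cox5b (0.28, -0.072 and 0.30), Cox6c (0.36, 0.51 and 0.46) or Cox7c (0.19, 0.14 and 0.12).

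In complex V the alpha subunit gene Atp5a1 and the membrane subunit gene Atp5mpl rose and the stalk gene Atp5f1 fell in each clone, and the catalytic beta subunit gene Atp5b rose in KO3. Of 16 tested members, 3 rose and 2 fell in KO1, 6 and 1 in KO2, and 9 and 1 in KO3, with medians of 0.11, 0.19 and 0.24. The shares of all genes that rose and fell were 26.9% and 25.4% in KO1, 29.9% and 30.5% in KO2, and 26.8% and 27.3% in KO3. The KO1 count of rises in complex V is thus below the share of all genes. With WT replicate 1 left out the counts were 2 and 5 in KO1, 6 and 3 in KO2, and 6 and 1 in KO3, and the medians -0.040, 0.051 and 0.13. Removing length and GC trends gave complex V medians of 0.017, 0.072 and 0.15. Both trends removed without WT replicate 1 gave -0.088, -0.048 and 0.12. The catalytic head is a ring of alpha and beta subunits around the gamma shaft. Atp5b, the beta subunit with the catalytic sites, had the highest level per kilobase of the 42 members in WT (18236 normalized counts per kilobase).

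Atp5a1, the alpha subunit (chromosome 18, 77773729 to 77782869, plus strand), had 27832, 26914 and 26527 in KO1, 25901, 26087 and 25255 in KO2 and 26158, 26354 and 26599 in KO3, against 23391, 23730.4 and 23826 in WT. All clone libraries exceeded WT, by a small step with little spread. Its differences were 0.20, 0.12 and 0.16 (for KO1, KO2 and KO3 in turn, SE 0.042, adjusted p = 0.00197, 0.0245 and 0.00738), and 0.19, 0.11 and 0.15 without WT replicate 1. The KO2 call was lost without KO2 replicate 1 or 2 (adjusted p up to 0.0819). Atp5b had 38944, 38076 and 38116 in KO1, 33375, 33163 and 30306 in KO2 and 51965, 53031 and 52594 in KO3, against 32183, 35917 and 36721 in WT, so that KO3 stood apart from all other groups. Its differences were 0.14, -0.11 and 0.59 (for KO1, KO2 and KO3 in turn, SE 0.060, adjusted p = 0.0744, 0.125 and 4.25e-06), and the KO3 difference was 0.089 (adjusted p = 0.384) with the nearest genes' median subtracted. Between clones Atp5b was higher in KO3 than in KO1 by 0.45 (adjusted p = 7.27e-05) and than in KO2 by 0.70 (adjusted p = 1.09e-06).

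Atp5c1, the gamma shaft (chromosome 2, 10056016 to 10080510, minus strand), had 6468, 6441 and 6512 in KO1, 8032, 7808 and 7680.1 in KO2 and 9492, 9148 and 9115 in KO3, against 6510.5, 7625 and 7513 in WT, and it was the 1 member with opposite calls in different clones. It rose in KO3 and fell in KO1, with differences of -0.15, 0.12 and 0.36 (for KO1, KO2 and KO3 in turn, SE 0.057, adjusted p = 0.0409, 0.0828 and 0.000181). KO1 overlapped WT through WT replicate 1, and without that library the difference was -0.23 (adjusted p = 0.000378). The KO1 call was lost without any of 8 libraries, namely WT replicates 2 and 3, each KO1 library, KO2 replicate 2 and KO3 replicates 1 and 2 (adjusted p up to 0.153), while the tests between clones gave 0.51 (adjusted p = 1.74e-05) for KO3 minus KO1, 0.28 (adjusted p = 0.00191) for KO2 minus KO1 and 0.24 (adjusted p = 0.00378) for KO3 minus KO2. Atp5d, the delta subunit of the central stalk, had 4894, 5119.6 and 4979 in KO1, 4735, 4301 and 3342 in KO2 and 5508, 5628 and 6896 in KO3, against 2385, 4125 and 4680.1 in WT. It rose in KO3. Its differences were 0.48, 0.19 and 0.74 (for KO1, KO2 and KO3 in turn, SE 0.21, adjusted p = 0.0688, 0.452 and 0.00894), with 0.44 there without WT replicate 1. Atp5e, the epsilon subunit beside it, rose in KO2 at 0.52 (adjusted p = 0.0139), a call lost without KO2 replicate 1 (adjusted p = 0.0685), with 0.32 (adjusted p = 0.043) without WT replicate 1. The difference of Atp5d between KO3 and KO2 was 0.55 (adjusted p = 0.0394), and that call was lost without any of 8 single libraries (up to 0.148).

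Atp5f1, subunit b of the peripheral stalk (chromosome 3, 105942698 to 105960099, minus strand), had 6249, 6549.6 and 6306 in KO1, 6391, 6508 and 6095 in KO2 and 6742, 6891 and 6873 in KO3, against 7290.2, 8137 and 8286 in WT. All 9 clone libraries were below the lowest WT library, which was WT replicate 1. Its differences were -0.31, -0.32 and -0.21 (for KO1, KO2 and KO3 in turn, SE 0.053, adjusted p = 0.000384, 0.000229 and 0.0056), and -0.37, -0.38 and -0.26 without that library. Quantile normalization gave -0.18, -0.15 and -0.13, uncalled, and subtracting the median of the 20 nearest genes gave -0.10, 0.069 and 0.076, also uncalled. Wdr77, which overlaps Atp5f1 on the opposite strand, changed by -0.57, -1.05 and -0.33 (adjusted p = 1.16e-06, 4.07e-09 and 0.000117), and without known strand use its reads cannot be told apart from those of Atp5f1. The other stalk genes were Atp5o, called in KO1 and KO3 (0.21, 0.15 and 0.22, and 0.095, 0.038 and 0.10 without WT replicate 1, uncalled), Atp5h, called in KO2 and KO3 (-0.00010, 0.30 and 0.24, of which the KO2 call held without WT replicate 1 at 0.16, adjusted p = 0.0227), and Atp5j, uncalled (0.15, 0.23 and 0.15). The Atp5h call in KO2 was lost without KO2 replicate 1 (adjusted p = 0.0665) and that in KO3 without any of 10 single libraries, and the Atp5o calls were lost without WT replicate 1 and without several clone libraries (adjusted p up to 0.111 in KO1 and 0.107 in KO3).

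Among the small membrane subunits, Atp5mpl, a proteolipid of the membrane part (chromosome 12, 111961375 to 111966977, minus strand), had 1258, 1289.7 and 1259 in KO1, 1745, 1606 and 1509 in KO2 and 1428, 1269.7 and 1247 in KO3, against 715, 975 and 1081 in WT. No clone library overlapped WT, and KO2 was highest. Its differences were 0.48, 0.83 and 0.53 (for KO1, KO2 and KO3 in turn, SE 0.12, adjusted p = 0.00608, 8.92e-05 and 0.00307), or 0.30, 0.65 and 0.35 without WT replicate 1. With the nearest genes' median subtracted the values were 0.15, 0.31 and -0.057, with a call in KO2 only. KO2 exceeded KO1 by 0.35 (adjusted p = 0.0364), a call lost without any 1 KO1 library or KO2 replicate 1 or 2 (adjusted p up to 0.123). Atp5l and Atp5k, which help to join the enzyme into dimers, rose in KO2 (0.40 and 0.39) and KO3 (0.39 and 0.24). Without WT replicate 1 the Atp5l values were 0.23 (adjusted p = 0.0134) in KO2 and 0.22 (adjusted p = 0.0186) in KO3, and the Atp5k value in KO2 was 0.26 (adjusted p = 0.0011). The Atp5l call in KO3 was lost without KO3 replicate 1 (adjusted p = 0.0595), and the Atp5k call there without KO3 replicate 1 or 3 or WT replicate 1 (0.12, adjusted p = 0.0839). Atp5j2, at 0.086, 0.19 and 0.14, was not called.

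The c-ring, the proton-driven rotor, is encoded by Atp5g1, Atp5g2 and Atp5g3, whose mature proteins are known to be identical. Atp5g3 had the highest level per kilobase of them in WT (7549, against 1304 for Atp5g1 and 904 for Atp5g2). These levels use transcript lengths of 718.5, 2675.5 and 586 nucleotides in turn. The Atp5g2 level leaves out reads assigned to the pseudogene Gm10175, described below. The size of the gaps thus depends on the lengths and on the assignment of reads. Atp5g1 had 3391, 3383 and 3302 in KO1, 3286, 3445 and 3316 in KO2 and 3809.5, 3358 and 3789 in KO3, against 2503, 3969.7 and 3994 in WT. Atp5g2 had 497, 461 and 516 in KO1, 755, 562 and 702 in KO2 and 789.9, 595 and 786 in KO3, against 299.9, 531 and 759 in WT. Atp5g3 had 4758, 4803 and 4719 in KO1, 5950.5, 6052 and 5817 in KO2 and 5874, 5377 and 5653 in KO3, against 4378, 6003 and 5891 in WT. In each of the 3 genes WT replicate 1 was the lowest WT library and every clone overlapped WT. None was called against WT, with -0.022, -0.027 and 0.096 for Atp5g1, -0.011, 0.43 and 0.54 for Atp5g2 and -0.17, 0.15 and 0.069 for Atp5g3, and KO2 exceeded KO1 in Atp5g3 by 0.32 (adjusted p = 0.0166), a call lost without KO2 replicate 2 (adjusted p = 0.0513). With WT replicate 1 left out Atp5g1 was lower in KO1 (-0.25, adjusted p = 0.00276) and KO2 (-0.25, adjusted p = 0.00195) and Atp5g3 in KO1 (-0.32, adjusted p = 7.21e-05). Counts of Atp5g2 are uncertain, since every 31-nucleotide stretch of the transcribed processed pseudogene Gm10175 on chromosome 7 occurs in Atp5g2. Gm10175 averaged 4216 normalized counts over all libraries. Their sum was 4529 ± 165 in KO1, 5451 ± 477 in KO2 and 5271 ± 329 in KO3, against 4031 ± 1135 in WT (SD, n = 3 each), and it was called higher in KO2 (0.48, adjusted p = 0.0249) and KO3 (0.43, adjusted p = 0.0435). The WT sums ranged from 2725 to 4772, and with WT replicate 1 left out the sum was at 0.22 (adjusted p = 0.0223) in KO2 and 0.17 (adjusted p = 0.0681), no longer called, in KO3.

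The mitochondrially encoded partners changed by gene. Of 5 rows, with mt-Atp8 and mt-Atp6 counted jointly, KO1 had 1 rise and 1 fall, KO2 had 1 fall, and KO3 had 1 of each. mt-Co1, the catalytic core of complex IV, had mean normalized counts of 704415 ± 10578 in KO1, 592925 ± 11165 in KO2 and 785316 ± 8750.2 in KO3, against 563511 ± 8227 in WT (SD, n = 3 each), and rose in KO1 (0.32, adjusted p = 0.00679) and KO3 (0.48, adjusted p = 0.000416). mt-Cytb, the cytochrome b of complex III, averaged 193587 ± 4169 in KO1, 226397 ± 4460.3 in KO2 and 219565 ± 7211 in KO3, against 254982 ± 6729.8 in WT, and fell in every clone (-0.40, -0.17 and -0.22, adjusted p = 0.000314, 0.0416 and 0.0156). mt-Atp8 with mt-Atp6, membrane subunits of complex V, stood at 385381 ± 4873 in KO1, 403001 ± 16628 in KO2 and 349864 ± 4710.0 in KO3, against 401501 ± 31698 in WT, and was not called, but in KO3 it was lower without WT replicate 1 (-0.26, adjusted p = 0.00442), the 1 change of call in this list. mt-Co2 and mt-Co3 share reads with nuclear copies: with these added, mt-Co2 averaged 221659 ± 6545 in KO1, 229487 ± 12916 in KO2 and 257645 ± 1958 in KO3, against 230499 ± 13703 in WT, and mt-Co3 196772 ± 1042 in KO1, 213751 ± 7056 in KO2 and 199873 ± 4494 in KO3, against 213282 ± 19438 in WT. The counts of rises and falls use these 2 rows without the copies, when they averaged only 5580 and 19019 in WT. No test of the sums with copies is given.

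Genes that deliver electrons to complexes III and IV moved in several ways. The counts of the mitochondrial rows above, of this list and of those below can be read against the shares of all genes. Of all genes 26.9% rose and 25.4% fell in KO1, 29.9% and 30.5% in KO2, and 26.8% and 27.3% in KO3. Of 8 tested carriers and dehydrogenases, 3 rose and 3 fell in KO1, 6 and 1 in KO2, and 4 rose in KO3. Sqor, the sulfide oxidoreductase that feeds coenzyme Q, averaged 892 ± 48.2 in KO1, 1267 ± 54.5 in KO2 and 1665 ± 115 in KO3, against 394 ± 63.4 in WT (SD, n = 3 each), and rose in each clone (1.19, 1.69 and 2.09). Suox, the sulfite oxidase that reduces cytochrome c, rose by 1.31, 1.27 and 1.18. Cycs, cytochrome c itself, fell in KO1 and KO2 (-0.23, -0.44 and 0.093). Of 11 coenzyme Q synthesis genes, 2 rose and 4 fell in KO1, 4 and 3 in KO2, and 8 rose in KO3, and without WT replicate 1 the counts were 5 and 3 in KO2 and 8 and 1 in KO3. Coq9, a lipid-binding partner of the hydroxylase Coq7, rose by 0.36, 0.44 and 0.68, while Pdss1, which builds the isoprenoid tail, was at -0.79, -1.02 and -0.14 and fell in KO1 and KO2.

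Atpif1, the inhibitor that stops ATP hydrolysis by complex V, averaged 2777 ± 67.1 in KO1, 3323 ± 119.7 in KO2 and 3484 ± 113 in KO3, against 2099 ± 402 in WT (SD, n = 3 each), and rose in each clone (0.42, 0.68 and 0.75; 0.25, 0.51 and 0.58 without WT replicate 1). Slc25a3, the phosphate carrier, rose in KO3 (0.56, adjusted p = 0.000151), and Slc25a4, an ADP/ATP carrier, fell in KO1 (-0.40, adjusted p = 0.000453). In that list of 4 tested genes 1 rose and 1 fell in KO1, 1 rose in KO2, and 2 rose in KO3. With WT replicate 1 left out there were 1 and 2 in KO1, 1 and 1 in KO2, and 2 and 2 in KO3, as Slc25a5, another ADP/ATP carrier, was then lower in KO1 (-0.28, adjusted p = 7.47e-05) and KO3 (-0.25, adjusted p = 0.000146), Slc25a4 in KO3 (-0.21, adjusted p = 0.00124) and Slc25a3 in KO2 (-0.13, adjusted p = 0.0321). Ndufa4, later assigned to complex IV, rose in KO2 (0.46, adjusted p = 0.0031) and was at -0.14 and -0.12 in KO1 and KO3, uncalled, but without WT replicate 1 it was lower in both (-0.31, adjusted p = 0.00129, and -0.28, adjusted p = 0.00222) and still higher in KO2 (0.30, adjusted p = 0.0012).

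Of 16 tested transcription factors and coactivators of respiratory genes, 4 rose and 3 fell in KO1, 4 and 6 in KO2, and 7 and 2 in KO3, and without WT replicate 1 the counts were 5 and 5 in KO2 and 6 and 2 in KO3. The 4 rises in KO1 and in KO2 are close to the share of all genes. Ppargc1a, the coactivator PGC-1alpha, averaged 669 ± 27.0 in KO1, 529.8 ± 28.2 in KO2 and 865 ± 28.1 in KO3, against 79.3 ± 17.9 in WT (SD, n = 3 each). It rose by 3.08, 2.75 and 3.45 on the log2 scale. Its relative Pprc1 averaged 3829 ± 170.3 in KO1, 2885 ± 175 in KO2 and 3823 ± 170.5 in KO3, against 5493 ± 309 in WT, and fell in each clone (-0.52, -0.93 and -0.52). Pparg, a lipid-sensing receptor, rose by 3.42, 1.03 and 3.79, and Esrra, the estrogen-related receptor alpha, by 0.49, 0.34 and 0.34, of which the KO2 and KO3 calls were lost without WT replicate 1 (0.27, adjusted p = 0.0606, and 0.27, adjusted p = 0.0646). The GABP beta gene Gabpb2 fell in each clone (-0.53, -0.76 and -0.33). Nrf1 was at -0.12, -0.061 and -0.088 and uncalled, and Yy1 was called in KO3 only (0.31, adjusted p = 0.0303), but without WT replicate 1 in KO2 as well (0.32, adjusted p = 0.00642).

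Between clones the largest called differences were those of Cox6a2, Cox7b2 and Atp5b. Those of Cox6a2 are of a low gene that passed the filter only through KO1 and KO3, where it was high. For KO2 minus KO1, 9 members were higher and 2 lower in KO2, against 20.5% and 23.9% of all genes. For KO3 minus KO1, 6 were higher and 1 lower in KO3, against 20.3% and 23.4%, and for KO3 minus KO2, 6 were higher and 3 lower in KO3, against 26.1% and 27.0%. Of these 27 calls 16 held whichever library was left out, with 6 of 11, 4 of 7 and 6 of 9 in these comparisons. WT replicate 1 belongs to neither clone, but leaving it out gave 18 called members for KO3 minus KO1 (16 higher, 2 lower). For KO3 minus KO2 it gave 20 (14 higher, 6 lower). Calls over all 15073 genes increased as well. For KO3 minus KO1 they went from 3058 higher and 3521 lower to 3612 and 4012. For KO3 minus KO2 they went from 3935 and 4073 to 4419 and 4502.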

How the data were processed

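RNA was measured in 12 NIH-3T3 libraries, 3 per genotype. Per the labels' protocols, total RNA depleted of cytoplasmic ribosomal RNA was primed with random hexamers, and the submitters' processing notes name GRCm38 (mm10), DESeq2 1.24.0, Salmon 0.14.1 and cutadapt. The sources used here state neither their order nor whether counting used strand. The authors deposited a table of normalized counts, used here as signal values. Of the values in a library, 99.95% to 99.99% are whole multiples of its own step within 0.02, so reads could be recovered, 32929242 to 42211807 per library. They may be rounded estimates, and counting error is only part of their error. The authors also deposited, per the file headers, log2 fold changes of each clone over WT with standard errors, p-values and adjusted p-values. All but 35 of 54392 identifiers matched GENCODE M21, and the mitochondrial rows used here, which carry symbols as identifiers, are among these 35.

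The 15073 genes with at least 10 normalized counts in at least 3 libraries were fitted with limma 3.58.1 (R 4.3.3, trended prior variance) on log2(value + 1), which understates changes of low genes, over all 12 libraries, two-sided, with Benjamini-Hochberg adjustment over all genes and a threshold of 0.05. Simulated data were used to check the fit. Alternatives were pseudocounts of 0.5 and 5, no filter, a filter of 50, quantile normalization, edgeR 4.0.16 (TMM) and DESeq2 1.42.0 on the recovered reads, the pair of groups alone, a replicate block, a length trend removed, the median of the 20 nearest genes subtracted, near-identical copies added, and each library left out. Chosen after seeing the data were leaving out WT replicate 1 with KO2 replicate 3, removing length and GC trends, the same without WT replicate 1, and near-identical copies added without WT replicate 1. Giving results with and without WT replicate 1 throughout also followed from its values in these data.

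Members, gene lists and tests were chosen with earlier results of these data known. Per-library values are given for members called alike in every clone without overlap, the largest rise and fall per clone and complex, members with opposite calls, and paralogous isoforms; Atp5b and Cox5a were added after their values were seen. Copies were searched by 31-nucleotide stretches in M21 transcripts, and promoter windows come from RefSeq tables (GRCm38.p6).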

Additional observations from a re-analysis of the deposited data

Results flagged for a closer look

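The effects of the clones differed from each other, by the limma test of the difference itself, for 27 results of 16 members. Of the 42 tested members, 9 were higher and 2 lower in KO2 than in KO1, against 20.5% and 23.9% of all genes. For KO3 minus KO1 the counts were 6 and 1, against 20.3% and 23.4%. For KO3 minus KO2 they were 6 and 3, against 26.1% and 27.0%. Calls of higher RNA in KO2 than in KO1 were close to the share of all genes, and the others were below it. Higher in KO2 than in KO1, on the log2 scale, were Cox7b2 (1.95), Cox4i1 (0.42), Atp5mpl (0.35), Atp5g3 (0.32), Atp5k (0.31), Atp5h (0.30), Uqcrh (0.30), Atp5c1 (0.28) and Uqcrb (0.17), and lower were Cox6a2 (-3.41) and Atp5b (-0.25). Adjusted p-values ran from 2.26e-06 for Cox7b2 to 0.0492 for Uqcrb. The Uqcrb call was lost without any of 10 single libraries (adjusted p up to 0.129), that of Atp5mpl without any of 5 (up to 0.123), Atp5h 3 (0.0863), Cox4i1 2 (0.077) and Atp5g3 1 (0.0513), and the other 6 of 11 held. Cox7b2 and Cox6a2, the isoforms known from testis and muscle, have the greatest differences of this comparison, but Cox6a2 passed the filter only through KO1 and KO3.

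For KO3 minus KO1 the higher members were Atp5c1 (0.51), Cox4i1 (0.48), Atp5b (0.45), Cyc1 (0.38), Uqcr11 (0.36) and Uqcrc2 (0.21), and Cox7b was lower at -0.25. The calls of Uqcr11 and Cox7b were each lost without any of 7 single libraries (adjusted p up to 0.156 and 0.154), and that of Uqcrc2 without any of 4 (up to 0.114), while the other 4 of 7 held. Atp5b and Atp5c1 form the catalytic ring and the shaft of complex V, and Cyc1 and Uqcr11 belong to complex III.

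For KO3 minus KO2 the higher members were Cox6a2 (3.63), Atp5b (0.70), Atp5d (0.55), Cyc1 (0.51), Atp5c1 (0.24) and Uqcrc2 (0.19), and the lower ones Cox7b2 (-1.55), Uqcrh (-0.32) and Cox7b (-0.29). The Atp5d call was lost without any of 8 single libraries (adjusted p up to 0.148), Uqcrc2 5 (0.138) and Cox7b 3 (0.0806), and the other 6 of 9 held. Each clone grew from 1 sorted cell, so a difference between clones and a difference between their founder cells cannot be told apart.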

How the results depend on the processing

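Among the member values under the alternatives, 6040 kept their direction and side of the threshold, 281 changed sign without a call on either side, 340 lost a call, 372 gained one and 17 turned direction with a call on at least 1 side; apart from values stated here, the cause was not tested. With all libraries 17, 19, 25, 11, 7 and 9 members were called for KO1 minus WT, KO2 minus WT, KO3 minus WT, KO2 minus KO1, KO3 minus KO1 and KO3 minus KO2. With 1 library left out they ranged over 9 to 20, 10 to 23, 19 to 29, 7 to 13, 4 to 18 and 6 to 20. The pair of groups alone, with fewer samples for the spread, gave 11 for KO1 minus WT, 8 for KO2 minus WT, 20 for KO3 minus KO1 and 14 for KO3 minus KO2. Subtracting the neighbours' median gave 8 for KO1 minus WT, 15 for KO3 minus WT and 4 for KO2 minus KO1. For KO3 minus KO1, DESeq2 gave 13, a length trend removed 17, length and GC trends 16, leaving out WT replicate 1 with KO2 replicate 3 gave 21, both trends removed without WT replicate 1 gave 19, and copies added without it 18. The same alternatives, without DESeq2, gave 18, 20, 22, 21 and 20 for KO3 minus KO2, and the pair before the copies 17 and 18 for KO2 minus KO1. Leaving out WT replicate 1 with KO2 replicate 3 gave 26 for KO2 minus WT. Reversed with the neighbours' median subtracted were Atp5b KO2 minus KO1 0.0066, Atp5f1 KO2 minus WT 0.069, Atp5f1 KO3 minus WT 0.076, Atp5mpl KO3 minus WT -0.057, Cox6b1 KO2 minus WT -0.040, Cox7b KO3 minus WT 0.42, Cox7b KO3 minus KO1 0.22, Cox7b KO3 minus KO2 0.19, Sdha KO1 minus WT 0.26, Sdha KO2 minus WT 0.089, Sdha KO3 minus WT 0.24, Sdhd KO2 minus WT -0.073, Uqcrc1 KO1 minus WT 0.055, Uqcrc2 KO3 minus KO2 -0.00077, Uqcrfs1 KO2 minus WT 0.55 and Uqcrfs1 KO3 minus WT 0.53, and with both trends removed without WT replicate 1 Atp5d KO2 minus WT -0.25.

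The replicate block gave 12, 15, 21, 9, 4 and 7 calls in the same order. Same-numbered libraries showed no strong shared pattern. Their deviations correlated at -0.22 to 0.12, with 2 of 18 pairs above 0.1, and 3 of 12 libraries correlated best with their own number. Such correlations cannot exclude a shared culture or day. Depth limits Cox6a2 and the isoforms near 0, and a count of 0 allows up to 3 reads per library.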
